A study of Mus musculus with 2 samples.

Results

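Neat1, Malat1, Snhg11, Gm26917 and Lncpint, 5 long RNAs that stay mostly in the nucleus, were followed through the single-cell RNA sequencing of 1 control and 1 JPI-289 kidney of the mouse. The 5 were chosen by their gene symbols, out of 32285 genes in the count tables, after earlier results of these data had shown how they vary with cell type and mitochondrial share. Their levels are therefore a description, with no test. Both kidneys came from 9-week-old male C57BL/6 mice 24 h after bilateral renal ischemia-reperfusion. The JPI-289 mouse received this PARP-1 inhibitor at 100 mg/kg into the peritoneal cavity just before reperfusion, and the control mouse received saline. With 1 library per group, n is 1 on each side, and no p-value can be given. Every interval below is an exact 95% interval that covers counting error and not the difference between mice. Intervals on summed UMIs do not cover the spread between barcodes either, so those of sets of few barcodes are too narrow.

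Neat1 is the scaffold RNA of paraspeckles, and Malat1 is the abundant RNA of nuclear speckles, where splicing factors gather. Snhg11 is a host RNA of small nucleolar RNAs, which are cut from its introns. Lncpint is a long RNA induced by p53, and Gm26917 is a long RNA annotated beside a ribosomal RNA gene, for which no role is given here. In a droplet experiment, an RNA held in the nucleus is counted when a nucleus opens in the droplet. Cytoplasm without a nucleus, like a red blood cell of a mammal, contributes little of it.

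In GRCm38 with GENCODE vM21, Malat1 (ENSMUSG00000092341) lies on the minus strand of chromosome 19 from 5795690 to 5802672. Neat1 (ENSMUSG00000092274) lies on the same strand from 5824708 to 5845478, with 22035 bases between the genes. Snhg11 (ENSMUSG00000044349) is on the plus strand of chromosome 2 from 158375638 to 158386145 and is annotated there as protein coding. Lncpint (ENSMUSG00000044471) is on the minus strand of chromosome 6 from 31082565 to 31220488. Gm26917 (ENSMUSG00000097971) is on the plus strand of chromosome 17 from 39843013 to 39846341, 616 bases before Gm42418, which overlaps a ribosomal RNA gene and, on the opposite strand, AY036118. Counts of Gm26917, Gm42418 and AY036118 may share reads of this repeated locus and are uncertain.

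The library kit primes cDNA from runs of A, so 3 stretches of 30 bases are shown from the annotated transcripts, where such runs or the signal that precedes a poly(A) tail occur. Capitals mark the longest run of A within each of the first 2 stretches and the AATAAA signal in the third. The single-exon transcript Malat1-201, of 6983 bases, has its longest run of A, 12 bases, at positions 6674 to 6685 (stretch at chr19:5795979-5796008, minus strand, GRCm38). The long transcript Neat1-201, of 20771 bases in 1 exon, has its most A-rich stretch, with 24 A, at positions 11350 to 11379 (chr19:5834100-5834129). The short transcript Neat1-202, of 3004 bases, ends with the third stretch (chr19:5842307-5842336). Each is written 5′ to 3′ in the sense of the RNA.
Malat1-201: cctagctttAAAAAAAAAAAAgcaaaagac
Neat1-201: aaacaaaacaagaacAAAAAAcaaagaaaa
Neat1-202: tttacagcaaAATAAAggtttgagattgaa
The tables count UMIs (unique molecular identifiers, one per captured molecule) by gene, so the long and the short Neat1 were not told apart.

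The control library held 38328760 UMIs and the JPI-289 library 35548396. Of these, 47.8% and 51.9% lay in barcodes with at least 1000 UMIs, 3849 of the control and 4506 of JPI-289, at medians of 2508 and 2400.5 UMIs. The libraries shared 22 of these barcodes. Over 50% mitochondrial (mt-) UMIs were found in 756 and 522 barcodes. The others were clustered without the 5 RNAs and the clusters named from markers of the kidney's cell types, which left 70 and 257 barcodes unnamed. PT-like cells (proximal tubule) held 1677 and 1316 barcodes, in clusters almost wholly of 1 library or the other. Control PT-like barcodes lay mainly in 4 clusters of 809, 453, 206 and 197, and those of JPI-289 mainly in 3 of 651, 451 and 207. LOH and DCT-like cells (loop of Henle and distal convoluted tubule) held 354 and 517, CD-like cells (collecting duct) 94 and 406, and EC-like cells (endothelium) 364 and 371. There were 177 and 570 neutrophil-like, 162 and 271 macrophage-like, 123 and 63 stroma-like and 57 and 92 red blood cell-like barcodes. Podocyte-like (10 and 35) and lymphocyte-like barcodes (5 and 86) were too few in the control library for a ratio.

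Neat1 and Malat1 were spread very unevenly over barcodes. In the control library 349 of 3849 barcodes (9.07%, 95% interval 8.18 to 10.0) and in the JPI-289 library 426 of 4506 (9.45%, 8.62 to 10.3) had 5% or more of their UMIs from Neat1 and Malat1 together, and are called rich here. The rich barcodes had a median of 17.1% (control) and 24.4% (JPI-289), with a maximum of 49.1% and 48.3%. The other barcodes had medians of 0.119% and 0.326%. Few barcodes lay around the limit of 5%, which was set after the distribution was seen. From 4 to 5% there were 26 and 28 barcodes, from 5 to 6% 23 and 18, and 288 and 360 barcodes reached 10%. None of the pair's UMIs were found in 697 control barcodes (18.1%) and in 152 JPI-289 barcodes (3.37%).

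**Figure D1:**
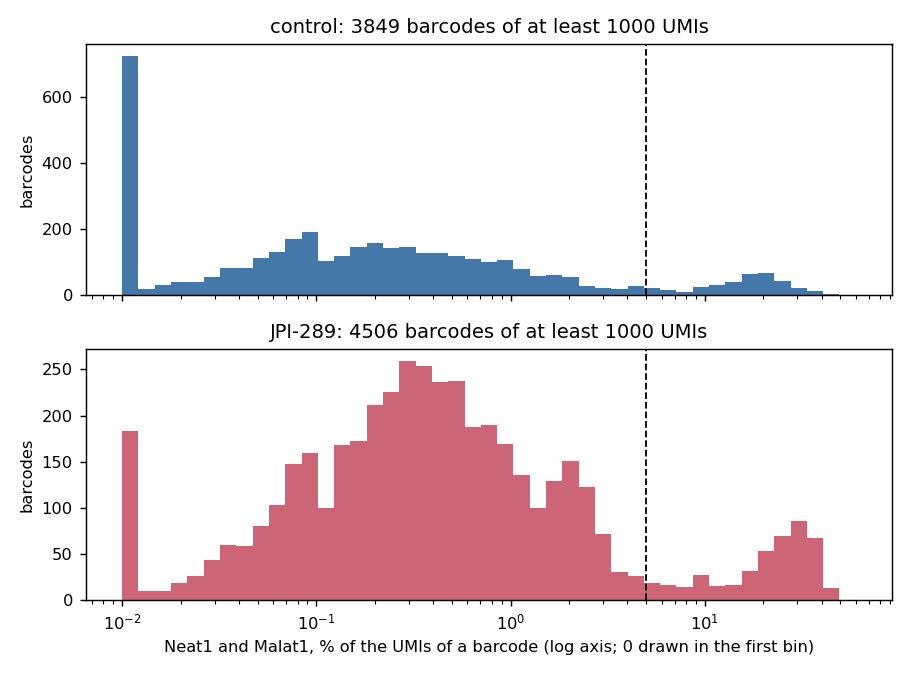
Histograms of the share of Neat1 and Malat1 in the UMIs of each barcode (log axis, in %) for the control library (upper panel) and the JPI-289 library (lower panel), with the number of barcodes on the vertical axis and a dashed line at 5%. Both libraries show a broad hump under 5% and a separate one above it, which holds 349 and 426 barcodes, and barcodes with no UMI of the pair are drawn in the first bin.

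The rich barcodes carried most of the UMIs of each of the 5 RNAs. They held 6.93% of the control UMIs and 7.87% of the JPI-289 UMIs. Of Neat1 they held 75.6% and 78.7%, and of Malat1 68.0% and 70.1%, genes that set the limit. The other 3 RNAs did not set it. Rich barcodes held 76.9% and 80.0% of Gm26917, 69.2% and 75.5% of Snhg11, and 52.4% and 55.1% of Lncpint. Their depth was close to that of the others, with medians of 2780 UMIs against 2470.5 in the control and 2196.5 against 2428.5 in the JPI-289 library. Their mt- share was lower, with medians of 2.22% against 7.56% and 2.67% against 4.54%, where the others include most barcodes over 50% mt-. By class this held in PT-like cells of the control (1.70% against 7.37%) and in LOH and DCT-like cells (3.40% against 6.90% and 2.97% against 7.29%). The order was the other way in PT-like cells of JPI-289 (11.1% against 5.07%), and in EC-like and stroma-like cells of both libraries, with 4.25% against 2.78% and 4.41% against 2.81% in the latter. CD-like cells split by library, with 2.54% against 5.97% in the control and 7.24% against 6.14% in JPI-289. Of the rich JPI-289 barcodes, 211 lay in an unnamed cluster described below, with a median of 1.99%.

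Although the 5 RNAs were left out of the clustering, rich barcodes fell mostly into clusters of their own. In 1 PT-like cluster of 197 control barcodes and no JPI-289 barcode, 197 were rich, with a median of 17.7%. In 1 LOH and DCT-like cluster of 66 control and 71 JPI-289 barcodes, 65 and 71 were rich, with medians of 26.3% and 29.5%. In the podocyte-like cluster 8 of 10 and 35 of 35 were rich. A further cluster of 4 control and 212 JPI-289 barcodes, of which 4 and 211 were rich, stayed unnamed, since no marker was among its leading genes and its score was low. Its leading lists were injured PT, then PT, and its top genes were Nktr, Srek1 and Srrm2, which act in or with splicing. All 22 PT markers had UMIs in it, 28.7 per 10000 UMIs in sum, against 226 in the rich PT-like barcodes of the control. In PT-like barcodes of JPI-289 their sum was 54.6 in the rich ones and 146 in those under 5%. Rich barcodes of other classes held PT markers too, with a sum of 40.6 in EC-like ones of the control. The sums (control and JPI-289) were 25.9 and 8.52 in rich CD-like, 16.8 and 10.1 in LOH and DCT-like, and 16.7 and 16.5 in stroma-like barcodes. All 15 EC and all 9 podocyte markers also had UMIs in the unnamed cluster, at 1.94 and 1.08 per 10000 in sum. The 10 markers of injured PT summed to 77.2 per 10000, against 57.3 in the rich PT-like barcodes of the control, 209 in those of JPI-289 and 199 in the PT-like barcodes of JPI-289 under 5%. In rich LOH and DCT-like barcodes they summed to 516 and 354 and in rich CD-like ones to 238 and 293 (control and JPI-289). They summed to 55.3 in rich EC-like barcodes of the control and to 32.7 and 52.3 in rich stroma-like ones. The class of the unnamed cluster is not read from these sums.

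By class, rich barcodes were a larger share of PT-like cells in the control library, 211 of 1677 (12.6%, 11.0 to 14.3), than in the JPI-289 library, 24 of 1316 (1.82%, 1.17 to 2.70). The unnamed cluster of 211 rich JPI-289 barcodes stands outside this count. In LOH and DCT-like cells the shares were 21.5% (17.3 to 26.1) and 18.0% (14.8 to 21.6), and in CD-like cells 12.8% (6.77 to 21.2) and 6.16% (4.02 to 8.96), with overlapping intervals. A CD-like cluster of 266 JPI-289 barcodes held 0 rich ones and no control barcode, and in the cluster that both libraries shared the shares lay the other way, 12 of 94 (12.8%) and 25 of 140 (17.9%, 11.9 to 25.2). In stroma-like cells they were 8.94% (4.55 to 15.4) and 17.5% (9.05 to 29.1), also with overlapping intervals. Rich barcodes were scarce among EC-like (3.02% and 2.16%), macrophage-like (1.23% and 0.738%) and neutrophil-like barcodes (0.565% and 0.351%). Among red blood cell-like barcodes there were 0 of 57 and 0 of 92, with upper limits of 6.27% and 3.93%. Podocyte-like barcodes stood at the other end with 80.0% (44.4 to 97.5) and 100% (90.0 to 100).

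**Figure D2:**
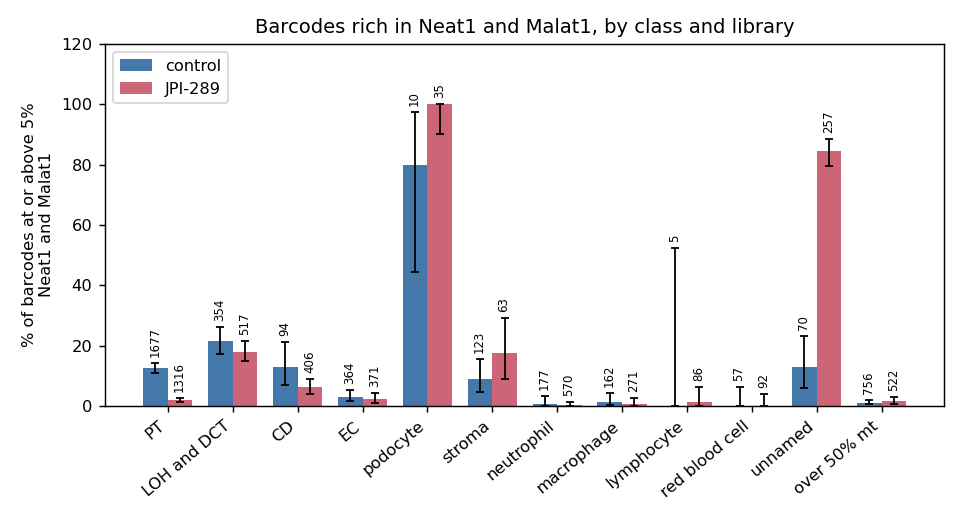
Share of barcodes (%) with 5% or more Neat1 and Malat1 in each class, for the control library (blue) and the JPI-289 library (red), with exact 95% binomial intervals and the number of barcodes above each bar. PT-like barcodes had 12.6% (control) and 1.82% (JPI-289), while 84.4% of the unnamed JPI-289 barcodes were rich.

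Some other RNAs of the nucleus were also higher in rich barcodes, and mRNAs of ribosomal proteins, which sit in the cytoplasm, were lower. Of the other long RNAs listed as mostly nuclear, 8 had at least 20 UMIs in PT-like cells of the control, and 8 of 8 were at least 2-fold higher in the rich barcodes than in the others, at a median log2 ratio of 3.57. The same was true of 43.5% of the 10626 genes measured there, whose median was 0.71. The 20 UMIs were summed over rich and other barcodes. A scarce RNA could thus pass through its rich UMIs, which favours a higher ratio. Nothing is read from the 8 of 8 or from its median. Kcnq1ot1, an RNA of an imprinted locus, had 3.70 UMIs per 10000 in rich and 0.122 in the other PT-like barcodes of the control, and Firre, an RNA that organises chromatin, had 1.91 and 0.0901. Tug1, of which part is exported, had 0.755 and 0.175. In PT-like barcodes of the control under 5%, Kcnq1ot1 had 92, Firre 68 and Tug1 132 UMIs, so these passed without rich barcodes.

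Among genes for proteins of nuclear speckles and splicing, 12 of 13 were at least 2-fold higher in these rich barcodes, and among those for paraspeckle proteins 7 of 10. This held for 43.5% of all genes measured there. Srrm2, a core protein of the speckles, had 11.0 and 1.64 UMIs per 10000, Srsf5, a splicing factor, 6.51 and 0.982, and Luc7l3, another, 1.24 and 0.329. Rbm14, needed to build paraspeckles, had 0.333 and 0.0795. Hnrnpk, which takes part in Neat1 processing, had 1.75 and 1.72. Of 78 measured genes for cytosolic ribosomal proteins, a list added after the data were seen, 78 were at least 2-fold lower, which held for 17.5% of all genes, at a median of -3.00. Rplp0, one of them, had 2.93 and 29.1 per 10000, and Eef1a1, an elongation factor chosen after its values were seen, 6.08 and 46.5.

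The unnamed JPI-289 cluster showed the same order when its rich barcodes were set against the PT-like barcodes of that library under 5%. At least 2-fold higher were 6 of 6 other long RNAs, 10 of 13 speckle and splicing genes and 6 of 10 paraspeckle genes, against 38.6% of all genes. At least 2-fold lower were 77 of 78 ribosomal protein genes, against 25.3%. Srrm2 had 22.6 and 1.27 UMIs per 10000 and Rplp0 2.67 and 29.4. In LOH and DCT-like cells of the control, rich barcodes were at least 2-fold higher in 3 of 3, 7 of 13 and 7 of 10 genes of these lists, against 26.1% of all genes, and lower in 77 of 77 ribosomal protein genes, against 17.7%. In those of the JPI-289 library the counts were 3 of 3, 7 of 13 and 4 of 10, against 25.5%, and 75 of 77, against 15.2%. The minimum of 20 UMIs was summed over both sides in these comparisons too. Scarce long RNAs could pass with the rich UMIs of the unnamed cluster, and nothing is read from its 6 of 6. In LOH and DCT-like barcodes of the control under 5%, Kcnq1ot1 had 12, Tug1 13 and Firre 19 UMIs. The long RNAs measured there passed only with their rich UMIs, and nothing is read from that 3 of 3. In those of JPI-289 under 5%, Kcnq1ot1 had 20, Tug1 33 and Firre 19 UMIs. Firre alone was thus under the minimum without rich barcodes, and nothing is read from the 3 of 3 of JPI-289 either.

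Mitochondrial, snoRNA host and ribosomal RNA locus genes were set between rich and other barcodes in the same comparisons, and differences between classes were not tested. Of 13 mt- genes, 12 were at least 2-fold lower in rich PT-like barcodes of the control, against 17.5% of all genes. There mt-Co2 was at 81.9 against 202 UMIs per 10000 and mt-Co1 at 83.1 against 203. In the unnamed cluster 7 of 13 were lower, against 25.3% of all genes. In LOH and DCT-like cells 0 of 13 were in the control, against 17.7%, and 1 of 13 in the JPI-289 library, against 15.2%. Of the snoRNA host RNAs, 6 of 13 were at least 2-fold higher and 3 lower in rich PT-like barcodes of the control, and 4 and 6 of 13 in the unnamed cluster. Of all genes, 43.5% were higher and 17.5% lower in the first comparison, and 38.6% and 25.3% in the second. In rich LOH and DCT-like barcodes 4 and 2 of 10 were in the control, against 26.1% and 17.7% of all genes. In those of JPI-289 2 and 4 of 10 were, against 25.5% and 15.2%. Nothing is read from the counts of snoRNA host RNAs in these comparisons. Gas5 was lower in each, at 2.74 against 3.18 UMIs per 10000 in PT-like barcodes of the control, 1.12 against 4.36 in the unnamed cluster, and 1.76 against 2.54 and 1.51 against 2.94 in LOH and DCT-like barcodes. Gm42418 of the ribosomal RNA locus was higher in rich PT-like barcodes of the control and in the unnamed cluster, at 542 against 230 and 511 against 205, and lower in rich LOH and DCT-like barcodes of both libraries, at 230 against 381 and 232 against 343. AY036118 was lower in the first pair, at 19.8 against 51.5 and 19.5 against 30.9. Red blood cell markers were high in the rich LOH and DCT-like barcodes of the JPI-289 library, where 5 of 7 had UMIs and their sum was 48.1 per 10000 against 1.26 in the others, while in the control it was 0.839 against 9.87. Their part in these values was not tested.

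**Figure D3:**
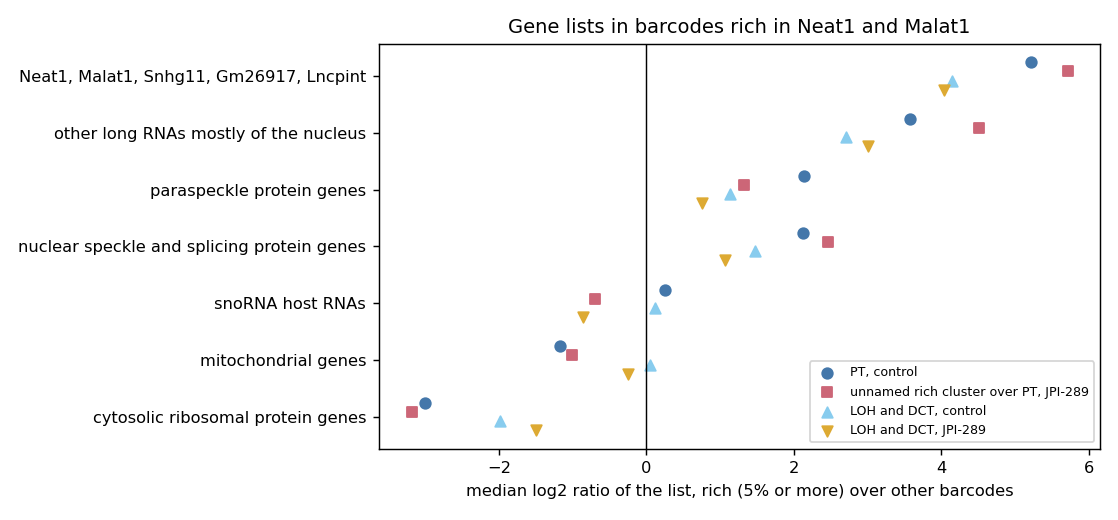
Median log2 ratio (horizontal axis) of each gene list (rows) between rich barcodes and those under 5%, for PT-like cells of the control (circles), the unnamed JPI-289 cluster against PT-like cells of JPI-289 (squares), and LOH and DCT-like cells of the control and of JPI-289 (triangles up and down). The other long RNAs lie right of 0 in all 4 comparisons (3.57 in PT-like cells of the control) and the ribosomal protein genes left of it (-3.00). Genes were kept by UMIs summed over rich and other barcodes, which for scarce RNAs favours the right side. Nothing is read from the points of the other long RNAs.

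Among rich barcodes the classes differed in which of the 5 RNAs they held. Snhg11 was found almost only in PT-like barcodes and the unnamed cluster. The rich PT-like barcodes of the control had 678 UMIs of it, 8.67 per 10000 (8.03 to 9.35), and the rich barcodes of the unnamed JPI-289 cluster 791, 10.4 per 10000 (9.70 to 11.2). The rich LOH and DCT-like barcodes had 1 control UMI and 3 JPI-289 UMIs, 0.0382 (0.000966 to 0.213) and 0.105 (0.0217 to 0.308) per 10000, and the rich CD-like ones 0 in both. Of all Snhg11 UMIs in the control 91.3% lay in PT-like barcodes, and in the JPI-289 library 22.6% did and 69.7% lay in unnamed ones.

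Gm26917 too was highest in these rich sets of PT-like control barcodes and the unnamed cluster, among sets of at least 8. Unlike Snhg11, it was also found in the rich barcodes of other classes. It had 381 UMIs per 10000 (377 to 386) in the rich PT-like barcodes of the control and 347 (343 to 351) in those of the unnamed JPI-289 cluster, against 130 (122 to 138) in the 24 rich PT-like barcodes of JPI-289. In rich LOH and DCT-like barcodes it had 76.4 (73.1 to 79.8) and 83.0 (79.7 to 86.4), and in rich CD-like ones 83.4 (73.5 to 94.3) and 68.0 (62.3 to 74.2). Rich stroma-like barcodes, 11 in each library, had 198 (181 to 215) and 221 (206 to 237), above the rich PT-like ones of JPI-289. The 35 podocyte-like barcodes of JPI-289, all rich, had 136 (127 to 145). The 10 of the control, of which 8 were rich, had 150 (134 to 167). Among sets of at least 8 rich barcodes, Malat1 was highest in the unnamed JPI-289 cluster, 2361 per 10000 (2350 to 2372). Its next levels were 1846 (1798 to 1894) in the rich CD-like barcodes of the control and 1704 (1689 to 1720) in the rich LOH and DCT-like barcodes of the control, then 1663 (1599 to 1729) in the 8 rich podocyte-like barcodes of the control, and the last of these intervals overlaps the one before. Rich PT-like barcodes of the control had 1544 (1535 to 1552) and those of JPI-289 1021 (1000 to 1043), and rich EC-like barcodes of the control were lowest of these sets with 780 (742 to 819).

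Neat1 was higher in the JPI-289 library in the rich barcodes of 5 classes that had at least 8 of them in both libraries, and lower in those of PT-like cells. Barcodes are called rich by the share of Neat1 and Malat1 themselves, so levels of this pair within rich barcodes are a description. Malat1 went both ways there, with log2 ratios (JPI-289 to control) of -0.089 in LOH and DCT-like, -0.37 in CD-like, -0.60 in PT-like and 0.21 in stroma-like rich barcodes. Neat1 had 389 UMIs per 10000 (374 to 405) in the rich podocyte-like barcodes of JPI-289 against 133 (115 to 153) in the 8 of the control. In rich LOH and DCT-like barcodes it had 192 (187 to 197) against 123 (118 to 127), in rich CD-like ones 137 (128 to 145) against 73.2 (63.9 to 83.5), in rich stroma-like ones 127 (115 to 139) against 47.0 (39.3 to 55.7) and in rich EC-like ones 143 (128 to 160) against 46.5 (37.6 to 56.8). In rich PT-like barcodes the order was the reverse, 86.7 (80.6 to 93.2) in the 24 of JPI-289 against 171 (168 to 174). The unnamed JPI-289 cluster, with 318 (314 to 322), stood above both. With this cluster and the rich PT-like barcodes summed, the log2 ratio (JPI-289 to control) came to 0.78 (0.75 to 0.81) for Neat1, 0.52 (0.51 to 0.53) for Malat1, 0.13 (-0.016 to 0.28) for Snhg11, -0.24 (-0.27 to -0.22) for Gm26917 and 1.13 (0.79 to 1.48) for Lncpint.

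Over all rich barcodes, whatever their class, this log2 ratio was 0.79 (0.77 to 0.82) for Neat1, 0.32 (0.31 to 0.33) for Malat1, 0.033 (-0.11 to 0.18) for Snhg11, -0.27 (-0.30 to -0.25) for Gm26917 and 0.90 (0.62 to 1.18) for Lncpint. None of the 5 was 2-fold different there, where 26.2% of 9995 genes were.

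Rich barcodes enter the comparison of the libraries over all barcodes and in each class with a ratio, except red blood cell-like barcodes, which held none. Over all barcodes of at least 1000 UMIs, Neat1 had 24277 control UMIs (13.2 per 10000) and 46247 JPI-289 UMIs (25.1 per 10000), a log2 ratio of 0.92 (0.90 to 0.94). Malat1 had 278423 and 386509, which is 152 and 209 per 10000 and a log2 ratio of 0.46 (0.46 to 0.47). Snhg11 had 1062 and 1140 (0.092, -0.030 to 0.21), Gm26917 45649 and 41516 (-0.15, -0.17 to -0.13) and Lncpint 296 and 601 (1.01, 0.81 to 1.22). Of the 5, Lncpint was past 2-fold, which 26.2% of 14505 measured genes were in 1 direction or the other, and the median of all these genes was -0.17. The limit of 5% is set on the share of Neat1 and Malat1 themselves, so their values under it are truncated by what is compared and are a description. Neat1 and Malat1 were higher in the JPI-289 library also without the rich barcodes, by 0.74 (0.69 to 0.79) and 0.38 (0.37 to 0.39), at 3.47 and 5.81 UMIs per 10000 for Neat1 and 52.2 and 67.9 for Malat1.

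In PT-like cells the direction turned on the rich barcodes. With them, the control had 16072 Neat1 UMIs and the JPI-289 library 4081, which is 19.3 and 5.60 per 10000 and a log2 ratio of -1.79 (-1.84 to -1.74). Malat1 had 151983 and 43397, or 183 and 59.5 per 10000 (-1.62, -1.63 to -1.60). The log2 ratio was -1.72 for Snhg11, -3.23 for Gm26917 and -1.20 for Lncpint, so all 5 were past 2-fold and lower in the JPI-289 library, where 32.9% of 11312 genes were past 2-fold and the median gene was at -0.18. Among PT-like barcodes under 5%, Neat1 had 2706 and 3330 UMIs, 3.59 and 4.62 per 10000, with a log2 ratio of 0.37 (0.29 to 0.44), and Malat1 31321 and 34553, 41.5 and 48.0 per 10000 (0.21, 0.19 to 0.23). Both thus lay on the other side of 0. Red blood cell-like barcodes, which give a background for Malat1, had 3.48 and 11.9 per 10000, a gap in the same direction that is larger in UMIs per 10000 than that of PT-like barcodes under 5%, and its part in this ratio was not tested. With the unnamed cluster counted as PT-like, the ratio was 0.84 for Neat1, 0.57 for Malat1, 0.12 for Snhg11, -0.20 for Gm26917 and 1.15 for Lncpint, so that Lncpint alone was past 2-fold, and higher.

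Gm26917 and Snhg11 went the other way in PT-like barcodes under 5%. Gm26917 had 4780 and 2105 UMIs there, 6.34 and 2.92 per 10000, a log2 ratio of -1.12 (-1.19 to -1.04). Snhg11 had 292 and 222 (-0.33, -0.59 to -0.072). Lncpint had 28 and 42 (0.64, -0.072 to 1.40), with an interval that holds 0 and the values of Neat1 and Malat1. Gm26917 was thus the one RNA past 2-fold, which 30.0% of 11045 genes were. Its neighbours at the ribosomal RNA locus were also lower in the JPI-289 library, Gm42418 by 0.16 and AY036118 by 0.74 on the log2 scale.

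**Figure D4:**
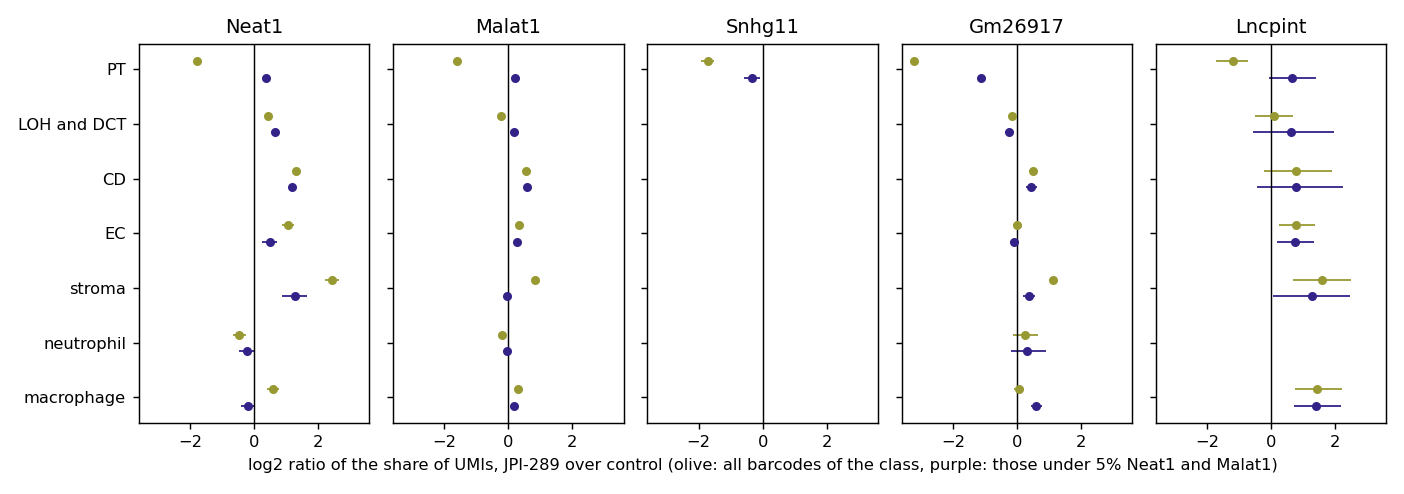
Log2 ratio of the share of UMIs, JPI-289 over control (horizontal axis), of the 5 RNAs (panels) in 7 classes (rows), for all barcodes of a class (olive) and those under 5% Neat1 and Malat1 (purple), with exact 95% intervals of counting error. In PT-like cells Neat1 moves from -1.79 to 0.37 and Malat1 from -1.62 to 0.21, and values on fewer than 20 UMIs or with an open interval are not drawn.

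In the other classes, without rich barcodes, the share of Neat1 in summed UMIs was higher in the JPI-289 library in LOH and DCT-like, CD-like, EC-like and stroma-like cells. Its interval reached across 0 in neutrophil-like and macrophage-like cells. Among LOH and DCT-like barcodes under 5% Neat1 had 6.12 and 9.70 UMIs per 10000 (log2 ratio 0.66, 0.54 to 0.79) and Malat1 88.3 and 100 (0.19, 0.15 to 0.22). With rich barcodes, Malat1 was at -0.22. In CD-like barcodes under 5% Neat1 had 8.05 and 18.5 (1.20, 1.09 to 1.31) and Malat1 116 and 173 (0.58, 0.55 to 0.61). The CD-like barcodes differed in makeup, since 266 of the 406 JPI-289 barcodes formed a cluster with no control barcode, which had 13.2 Neat1 and 191 Malat1 UMIs per 10000. In the cluster that both libraries shared, of which 82 and 115 barcodes were under 5%, these had 8.05 and 20.6 Neat1 UMIs (1.35, 1.24 to 1.47) and 116 and 166 Malat1 UMIs (0.52, 0.49 to 0.55).

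EC-like barcodes under 5% had 1.56 and 2.20 Neat1 UMIs per 10000 (0.49, 0.26 to 0.72) and 57.1 and 68.5 Malat1 UMIs (0.26, 0.23 to 0.30). By detection the order of Neat1 was the reverse, in 37.1% of these barcodes of the control and 30.0% of those of JPI-289. A rise of Neat1 in most EC-like barcodes is thus not read from the summed UMIs. The EC-like barcodes too differed in makeup, since a cluster of 180 control barcodes held 3 of JPI-289. In the EC-like cluster that both shared, 180 and 360 barcodes under 5% had 1.41 and 2.21 Neat1 UMIs (0.65, 0.36 to 0.96) and 48.3 and 68.6 Malat1 UMIs (0.51, 0.46 to 0.56). In stroma-like barcodes under 5%, 112 and 52 of them, Neat1 had 1.40 and 3.37 (1.27, 0.89 to 1.66, against 2.44 with rich barcodes), and Malat1 76.0 and 73.4 (-0.050, -0.12 to 0.018). Macrophage-like barcodes under 5% had 2.87 and 2.52 Neat1 UMIs per 10000 (-0.19, -0.41 to 0.034) and 37.8 and 42.6 Malat1 UMIs (0.17, 0.12 to 0.23). With 2 rich barcodes in each library added, Neat1 was at 0.59. In neutrophil-like barcodes under 5% Neat1 had 4.39 and 3.76 (-0.23, -0.47 to 0.025) and Malat1 42.0 and 40.9 (-0.039, -0.12 to 0.039).

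Lncpint was higher in macrophage-like barcodes under 5% of the JPI-289 library, with 69 UMIs against 22 in the control (1.41, 0.72 to 2.19), and in EC-like ones, with 46 and 65 (0.75, 0.19 to 1.33). Free RNA was estimated at 22.7% of the UMIs of all macrophage-like barcodes of the control and 52.2% of those of JPI-289, from the profile of barcodes of 100 to 300 UMIs. After its subtraction Lncpint was at 2.02 in all macrophage-like barcodes, against 1.41 before. In stroma-like ones it had 14 and 13 UMIs (1.27, 0.060 to 2.47). Gm26917 was higher in CD-like (0.45), stroma-like (0.37) and macrophage-like barcodes under 5% (0.61), lower in LOH and DCT-like ones (-0.23) and within counting error in EC-like ones (-0.089, -0.23 to 0.050). Over all macrophage-like barcodes, rich ones included, Gm26917 was at 0.060 (-0.086 to 0.21). Its control UMIs there were 697, against 440 under 5%. Of the RNAs with at least 20 UMIs, 0 of 4 were past 2-fold in LOH and DCT-like (18.0% of all genes), 1 of 4 in CD-like (21.6%), 0 of 4 in EC-like (23.8%), 2 of 4 in stroma-like (26.6%), 0 of 3 in neutrophil-like (22.7%) and 1 of 4 in macrophage-like barcodes under 5% (24.4%). With 3 or 4 RNAs a class, nothing is read from these counts. Snhg11 had 5 or fewer UMIs in each of these classes but CD-like, where the JPI-289 library had 13 and the control 0.

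The clusters of PT-like barcodes covered a wide range of levels even without the rich one. The largest PT-like cluster of the control, 809 barcodes, had 5.01 Malat1 UMIs per 10000 (4.72 to 5.31), with a median of 0.0379% for the pair. The largest of JPI-289, 651 barcodes, led by Srxn1, Plin2 and Prdx1, had 17.9 (17.3 to 18.5). The 2 clusters with mt- medians of 13.3% (453 control barcodes) and 12.8% (451 JPI-289 barcodes) had 73.9 (73.0 to 74.8) and 100.0 (98.9 to 101). Those of 206 control and 207 JPI-289 barcodes had 49.4 (48.4 to 50.5) and 40.2 (39.4 to 41.1). Neat1 ran from 0.108 (0.0699 to 0.160) in the largest control cluster to 10.1 (9.75 to 10.5) in the cluster of 451 JPI-289 barcodes.

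Red blood cells lack a nucleus, and their level is taken here as the background. Red blood cell-like barcodes had 45 Malat1 UMIs, 3.48 per 10000 (2.54 to 4.66), on the control side and 222, 11.9 (10.4 to 13.6), on the JPI-289 side. Neat1 had 0 and 4 UMIs. The largest PT-like cluster of each library, at 5.01 and 17.9, lay above these levels, with intervals of counting error that do not overlap them. Barcodes of 100 to 300 UMIs had 42.5 and 107. Free RNA of this profile was estimated at 12.6% and 21.2% of the UMIs of PT-like barcodes. Its part in these levels was not tested, and Malat1 above free RNA is not read from them. When each barcode was thinned to 1000 UMIs, Malat1 was detected in 36.8% and 72.8% of red blood cell-like barcodes and in 52.2% and 73.3% of PT-like barcodes under 5%, at median depths of 1830 and 1833.5 against 2568.5 and 2885.5 UMIs. In neutrophil-like barcodes it was found in 94.3% and 96.5% and in EC-like ones in 92.4% and 99.2%. The share in PT-like barcodes of JPI-289 is at this background and is not read as a difference. Without thinning the PT-like shares were 72.4% and 94.2%, and those of red blood cell-like barcodes 52.6% and 85.9%.

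Neat1 after thinning was detected in 9.00% and 13.5% of PT-like barcodes under 5% (19.0% and 23.8% without thinning), against 0% and 2.17% of red blood cell-like ones, where 0 of 57 control barcodes allows up to 6.27%. In CD-like barcodes under 5% it was 36.6% and 68.0%, and in neutrophil-like ones 30.1% and 28.7%. In EC-like ones under 5% it was 13.3% (9.95 to 17.3) and 8.82% (6.11 to 12.2), with overlapping intervals. There the JPI-289 library was the lower one, although its share of Neat1 in summed UMIs was higher. In rich barcodes Neat1 was detected in 97.7% and 98.6%, and Lncpint, the least abundant of the 5, in 12.9% and 21.1%.

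Barcodes just outside the limit of 1000 UMIs had a lower share of Neat1 and Malat1 than those just inside. From 500 to 1000 UMIs, Malat1 had 42.9 (control) and 98.3 (JPI-289) per 10000, and Neat1 2.78 and 8.66. From 1000 to 2000 UMIs they had 154 and 290, and 12.8 and 34.5. Barcodes of 100 to 300 UMIs, 62718 and 60460 of them, too shallow to be counted as cells here, had 42.5 and 107 Malat1 UMIs and 0.839 and 1.86 Neat1 UMIs per 10000. This difference of the low barcodes runs in the same direction as that of Malat1 over all barcodes under 5%. In stroma-like (-0.050) and neutrophil-like barcodes under 5% (-0.039) the interval of Malat1 reached across 0. The part of the low barcodes in the ratios of Malat1 was not tested.

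The mitochondrial share is the measure beside which these RNAs were chosen. Over all barcodes, Malat1 was highest in those under 5% mt-, with 204 (control) and 255 (JPI-289) UMIs per 10000, was 88.7 and 122 from 10 to 20% mt-, was 157 and 236 from 30 to 50%, and was lowest from 70% up with 20.8 and 34.3. Rich barcodes were 14.1% and 12.4% of those under 5% mt- and 0.206% and 0.279% of those from 70% up. Neat1 had 17.3 and 31.7 at the low end and 2.22 and 1.59 at the high end.

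Without the rich barcodes the order at the low end changed. Malat1 was then 44.7 and 48.5 per 10000 under 5% mt-, 71.2 and 105 from 5 to 10%, 75.3 and 92.3 from 30 to 50%, and 15.5 and 33.1 from 70% up. As a share of nuclear gene UMIs alone, Malat1 in these barcodes was 45.5 and 49.4 under 5% mt- and 91.5 and 208 from 70% up. With mt- UMIs left out of the denominator, these barcodes thus had a higher share from 70% up than under 5% mt-. Gm26917 had 2.98 and 2.37 of all UMIs under 5% mt- and 16.6 and 10.2 from 30 to 50%.

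**Figure D5:**
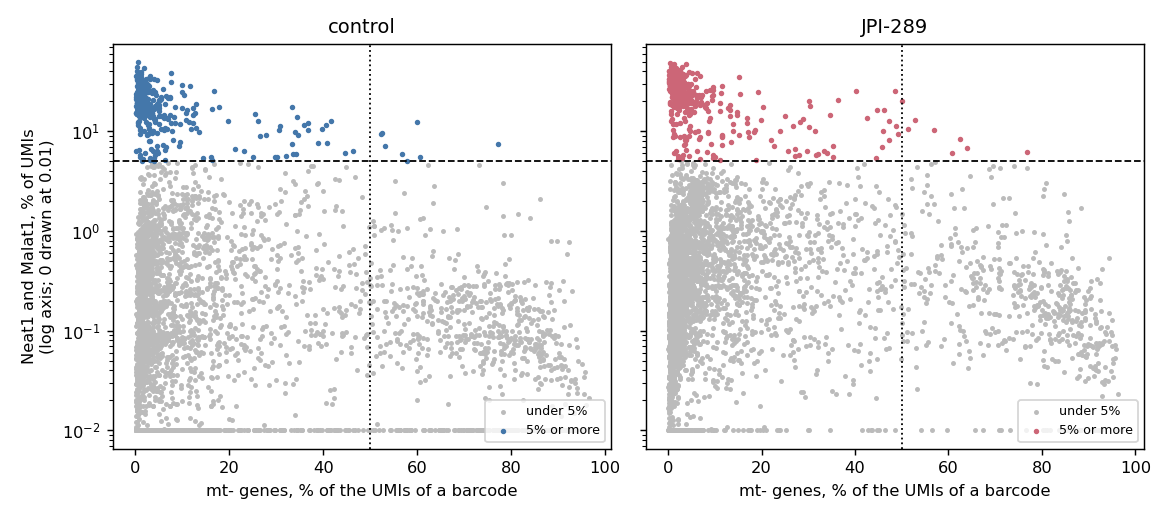
Share of Neat1 and Malat1 (vertical log axis, %) against the share of mt- genes (horizontal axis, %) in the UMIs of each barcode, for the control library (left) and the JPI-289 library (right), with rich barcodes in colour, a dashed line at 5% and a dotted line at 50% mt-. Rich barcodes crowd at the left, with mt- medians of 2.22% and 2.67%, and 8 in each library lie right of 50%.

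Across barcodes, Neat1 and Malat1 shares had a Spearman correlation of 0.71 over the 3849 control and 0.69 over the 4506 JPI-289 barcodes, and 0.60 and 0.57 without rich ones. Gm26917 and Malat1 had 0.56 and 0.59. Within rich barcodes the values were lower, 0.30 and 0.37 for Neat1 with Malat1 and -0.014 and 0.25 for Gm26917 with Malat1. The share of the pair had correlations of -0.15 and 0.055 with the mt- share over all barcodes, of -0.47 and -0.61 within rich ones, and of 0.34 and 0.49 in PT-like barcodes under 5%. At most 50% mt- it was 0.010 and 0.21. Barcodes of 1 library share its depth and free RNA, and these values are descriptions.

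Over 19 sums of UMIs by class and library, among which barcodes over 50% mt- count as a class, the pattern of Neat1 correlated with that of Malat1 at r = 0.95. Sums of fewer than 50 barcodes were left out, which removed podocyte-like barcodes and the lymphocyte-like ones of the control. Unnamed barcodes were left out too, which held 54.2% of the Neat1 and 49.3% of the Malat1 UMIs of JPI-289. Of 7473 other genes with at least 500 UMIs, those most like Neat1 by Pearson's r were Psme4 (0.91), a proteasome activator, Erbin (0.89), a protein that binds ErbB2, Nampt (0.86), the enzyme of NAD salvage, Chka (0.86), a choline kinase, and Nedd4l (0.85), a ubiquitin ligase. Those most like Malat1 were Psme4 (0.92), Nampt (0.90), Tob1 (0.90), an inhibitor of proliferation, Map1lc3a (0.89), a protein of autophagosomes, and Lrp6 (0.89), a coreceptor of Wnt. Most of their UMIs lay outside the rich barcodes, which held 25.9% of those of Psme4, 6.38% of Nampt and 2.95% of Map1lc3a. The sums share their libraries and depth, and the r values are descriptions.

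In the comparison of the libraries in PT-like cells, the genes around the 5 RNAs went both ways. The unnamed cluster, with 211 rich JPI-289 barcodes, is outside these PT-like values. Those of all PT-like barcodes hold 211 rich control and 24 rich JPI-289 barcodes. Of 10 genes for paraspeckle proteins, 2 were past 2-fold and higher in the JPI-289 library in all PT-like barcodes, among them Rbm14 at 1.02, and 3 of 10 in those under 5%, where Rbm14 was at 1.38 and Hnrnpk at 0.37. Their median was 0.41 and 0.49, against -0.18 and -0.03 over all genes. Of all genes, 32.9% were past 2-fold in PT-like barcodes, 9.41% higher and 23.5% lower, and 30.0% in those under 5%, 11.96% higher and 18.1% lower. Of 13 genes for speckle and splicing proteins, 2 were past 2-fold in all PT-like barcodes, Srsf5 at 1.05 and Luc7l3 at -1.11, and 1 in those under 5%, Srsf5 at 1.66, where Luc7l3 was at -0.82. Srrm2 was at -0.91 and, under 5%, at -0.37. Over all barcodes of the libraries, whatever their class, Srrm2 was at 0.51, Srsf5 at 1.36 and Luc7l3 at -0.055.

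Of the other long RNAs, 8 were measured, and 6 of 8 were past 2-fold in all PT-like barcodes, each lower in the JPI-289 library, as were 23.5% of all genes. Kcnq1ot1 was at -3.32 with 381 and 33 UMIs, Firre at -2.38 with 217 and 36, and Tug1 at -0.33. The unnamed cluster of rich JPI-289 barcodes is outside these values too. Over all barcodes of the libraries 1 of 8 was past 2-fold, and lower, as were 19.8% of all genes. There Kcnq1ot1 was at -0.89, Firre at -0.31 and Tug1 at 0.18. Under 5% there were 4 of 8 past 2-fold, 1 of them higher, with Kcnq1ot1 at -1.44, Firre at -0.97 and Tug1 at 0.011. Chaserr, a further listed RNA, was not among the symbols. Of 13 snoRNA host RNAs, 5 were past 2-fold and higher in the JPI-289 library, and 6 of 13 among barcodes under 5%, against the 9.41% and 11.96% of all genes above. Snhg3 was at 1.64 and Snhg5 at 2.25, and Gas5, with most UMIs, at 0.48, whereas Snhg11 was at -1.72.

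The 2 genes whose products act on the 3′ end of Malat1 were not past 2-fold over all PT-like barcodes, where 32.9% of 11312 genes were. Mettl16, which binds the triple helix there, had 115 and 86 UMIs (-0.23), and Elac2, which cuts the precursor, 63 and 65 (0.24). Among 13 mt- genes none was past 2-fold, against the same share of all genes. The unnamed cluster of rich JPI-289 barcodes is outside the values of this paragraph. The mt- genes with most UMIs were mt-Co2 (-0.20) and mt-Co1 (-0.35), and the mt- genes that differed most were mt-Nd1 (-0.75) and mt-Nd6 (-0.36).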

How the data were processed

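Single-cell libraries were made with the 10x 5′ kit. The authors deposited unnormalised UMI counts of each gene in all barcodes, without cell calling. The submitters' processing notes name Cell Ranger 5.0.1 and mm10. Introns and strand settings are not given in the sources used here. The members and gene lists were chosen with earlier results of these data known.

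Barcodes with at least 1000 UMIs were kept, and those with at most 50% mt- UMIs were clustered with scanpy 1.11.5 and leidenalg 0.10.2, without correction between libraries. The 5 RNAs were removed first, each barcode was scaled to 10000 UMIs on a log scale, and Leiden clustering at resolution 1 used 20 neighbours in 30 principal components of the 2000 most variable genes. A cluster was named where its mean log2 marker ratio reached 0.75 with 3 markers detected and, under 2, a marker among its 10 leading genes, a rule set after seeing data. Injured PT with PT next counted as PT. Scrublet marked 0 and 1 barcodes and so did not work here, and doublets remain.

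UMIs were summed by class and library, and log2 ratios taken after adding 0.5, with exact binomial (Clopper-Pearson) intervals, and Poisson intervals for sums. Genes needed 20 UMIs over both libraries, and past 2-fold means a log2 ratio of at least 1 in size. Named from each list were the 2 genes with most UMIs and the 2 that differed most among those with 50 UMIs in PT-like cells. One gene that this rule names is not reported here. Ratios were tested on simulated data. The alternatives were other UMI minimums (500 and 2000), at most 20% mt- UMIs, nuclear genes as denominator, equal weight of barcodes, free RNA from barcodes under 100 UMIs, classes by single barcodes, resolution 0.5 and leaving out the 5% highest doublet scores. A further 3, on rich barcodes, the unnamed cluster and free RNA of 100 to 300 UMIs, were chosen after seeing the data, as were the values within clusters shared by both libraries. GENCODE vM21 gave loci and transcript stretches. Python 3.11.15, numpy 2.4.6 and scipy 1.17.1 were used.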

Additional observations from a re-analysis of the deposited data

Results flagged for a closer look

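Several ratios of JPI-289 over control had opposite signs in different classes. With all barcodes of a class, Neat1 was at 2.44 (2.23 to 2.66) in stroma-like cells and at -1.79 (-1.84 to -1.74) in PT-like cells. Malat1 was at 1.76 (1.31 to 2.27) in red blood cell-like barcodes, on 45 and 222 UMIs, and at -1.62 in PT-like cells. Gm26917 was at 1.11 (1.00 to 1.23) in stroma-like and at -3.23 (-3.28 to -3.18) in PT-like cells, and Lncpint at 1.57 (0.69 to 2.48) and -1.20 (-1.72 to -0.71). Without rich barcodes, Gm26917 was at 0.61 (0.44 to 0.78) in macrophage-like and at -1.12 (-1.19 to -1.04) in PT-like barcodes. With the rich macrophage-like barcodes, 2 in each library, it was at 0.060 (-0.086 to 0.21) in that class. The PT-like values of all barcodes depend on which rich barcodes are in that class. Without rich barcodes, PT-like cells had Neat1 at 0.37, Malat1 at 0.21 and Lncpint at 0.64 (-0.072 to 1.40). With the unnamed cluster counted as PT-like, Neat1, Malat1 and Lncpint were higher in the JPI-289 library, and Gm26917 was lower but not past 2-fold. Each value rests on 1 library per group, and the difference between classes was not tested.

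Barcodes of 100 to 300 UMIs, which enter no comparison of cells, had more Neat1, Malat1, Snhg11 and Lncpint in the JPI-289 library. Gm26917 was lower there, with 7.63 (control) and 6.30 (JPI-289) UMIs per 10000. The ratios of all other genes in these barcodes are not given here, so nothing particular to these RNAs is read from this. The log2 ratio was 1.15 (1.04 to 1.25) for Neat1, 1.34 (1.32 to 1.35) for Malat1, 0.86 (0.58 to 1.14) for Snhg11 and 1.76 (1.19 to 2.40) for Lncpint.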

How the results depend on the processing

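With 1 library per group no library could be left out, and counting error alone bounds these values. No paired analysis was possible because each group has 1 library. Over all barcodes Neat1, at 0.92, was 0.97 at 500 UMIs, 0.82 at 2000, 0.89 at most 20% mt-, 0.87 over nuclear genes, 0.88 without the highest doublet scores and 0.74 without rich barcodes. Malat1, at 0.46, was 0.52, 0.37, 0.40, 0.42, 0.44 and 0.38 in the same order, and 0.47 with equal weight. In PT-like cells, Neat1, at -1.79, was -1.99 at 2000 UMIs, -2.16 at most 20% mt-, -2.22 with equal weight, -2.03 and -1.73 after subtracting free RNA of barcodes under 100 and of 100 to 300 UMIs, -1.68 with barcodes classed singly, -1.997 at resolution 0.5 and -1.89 without the highest doublet scores. Malat1, at -1.62, was -1.87, -2.11, -1.87, -1.93, -2.12, -1.71, -1.81 and -1.70 in the same order, and -1.64 over nuclear genes. Both reversed without rich barcodes (0.37 and 0.21) and with the unnamed cluster counted as PT-like (0.84 and 0.57), which holds 211 of the 426 rich JPI-289 barcodes against 24 in PT-like cells. Classed singly, 1326 control and 302 JPI-289 barcodes were PT-like, against 1677 and 1316 by clusters, so most of those of JPI-289 are not in that value.

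Of 317 values for 31 other ratios, 204 stayed within the counting interval and 285 kept their sign. In PT-like cells Snhg11 reversed to 0.12 with the unnamed cluster, Gm26917 moved from -3.23 to -0.20 and so was not past 2-fold, and Lncpint to 0.64 without rich barcodes and 1.15 with that cluster. Gm26917 in stroma-like cells reversed to -0.047 with equal weight and -0.074 without the highest doublet scores, and the cause was not tested.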
